A study of Mus musculus with 12 samples.

Results

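The receptor CXCR3 and its ligands CXCL9, CXCL10 and CXCL11 were described at the mRNA level in mouse mammary tumors treated with a PARP inhibitor, a STING agonist or both. The genes were picked by symbol, as Cxcl9, Cxcl10, Cxcl11 and Cxcr3, with no threshold on measured values but with earlier results of these data known, and all 4 were measured among the 750 genes of the table. All 4 passed the filter on low values, which kept 689 genes. RNA came from chunks of K14-Cre;Brcaf/fTrp53f/f tumors, the label's spelling of a triple negative breast cancer model in which a Cre driven by the keratin 14 promoter removes Brca1 and Trp53. Chunks of such tumors were grown in the mammary fat pads of female FVB/129P2 mice, a syngeneic host, and treatment began at 150 to 300 mm3. Every group therefore carried the same deletions and a transplanted tumor, and the mouse age is not given in the sources used here. All mice received intraperitoneal injections for 3 days and an intratumoral injection of 40 μl on the opening day. Vehicle mice received DMSO in saline and intratumoral saline. ADU-S100 mice received 50 μg of the STING agonist ADU-S100 in the tumor with the DMSO vehicle, olaparib mice received the PARP inhibitor olaparib at 50 mg/kg daily with intratumoral saline, and combination mice received both drugs. Tumors were taken at 3 days, 3 per group and 12 in all, each with its own tumor number in the labels.

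CXCL9, CXCL10 and CXCL11 are chemokines without the ELR motif that are made by myeloid, stromal and tumor cells exposed to interferon, and they bind the same receptor. CXCR3 is carried mainly by activated CD8+ T cells, type 1 helper T cells and NK cells, which migrate toward the ligands. CXCL9 is known for its dependence on interferon-γ, whereas CXCL10 and CXCL11 also respond to type I interferon, which cells produce when the DNA sensor pathway through STING is switched on.

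The 3 ligand genes lie side by side in the RefSeq annotation of GRCm38.p6, the C57BL/6J reference. Cxcl9 occupies chr5:92321331-92328079, Cxcl10 chr5:92346638-92348889 and Cxcl11 chr5:92359544-92363296, a stretch of 41966 bases in all. Cxcr3 lies at chrX:101731535-101734147. RefSeq lists Cxcl11 as a transcribed pseudogene in this reference strain, which is not the strain of these mice. Of the 4 genes, 3 had a promoter in the table used here, namely Cxcl9, Cxcl10 and Cxcr3. The windows from 250 bases before to 50 bases after the start are shown for the neighbors Cxcl9, chr5:92328030-92328329, and Cxcl10, chr5:92348840-92349139, both on the minus strand, because motifs of interferon and NF-κB signaling were found in the Cxcl10 window only. Capitals mark the matches, in the order interferon-stimulated response element, then NF-κB site.
Cxcl9 promoter: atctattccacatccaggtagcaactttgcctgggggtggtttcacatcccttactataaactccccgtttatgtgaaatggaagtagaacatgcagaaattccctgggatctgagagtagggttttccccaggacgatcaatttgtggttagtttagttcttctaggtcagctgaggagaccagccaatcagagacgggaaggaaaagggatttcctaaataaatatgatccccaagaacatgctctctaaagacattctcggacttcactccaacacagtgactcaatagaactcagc
Cxcl10 promoter: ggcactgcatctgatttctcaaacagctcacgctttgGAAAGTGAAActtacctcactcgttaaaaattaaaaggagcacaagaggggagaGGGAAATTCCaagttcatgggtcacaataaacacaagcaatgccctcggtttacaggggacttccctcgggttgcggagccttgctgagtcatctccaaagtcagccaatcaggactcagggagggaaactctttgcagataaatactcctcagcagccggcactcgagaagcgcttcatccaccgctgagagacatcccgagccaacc
In the Cxcl10 window, GAAAGTGAAA began 213 bases before the start and matched GAAANNGAAA, the core of the interferon-stimulated response element. GGGAAATTCC began 159 bases before the start and matched GGGANNTTCC, an NF-κB site. Both strands were searched, and the matches do not overlap. Of all 32851 promoters of this length, 3.44% held the first motif and 1.47% the second. Another motif, the gamma-activated sequence TTCNNNGAA, was present in 8.3% of all promoters and had no match in these windows. The windows of Cxcl9 and Cxcr3 held no match to any of the 3 motifs, which says only that these letters are not in these windows.

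The measurements were deposited as normalized nCounter counts, in which color-coded probes are counted without amplification. The totals behind the scaled values were 632152 to 1519471 per tumor in vehicle, 372390 to 683982 in ADU-S100, 106206 to 1392128 in olaparib and 1339258 to 1491854 in combination tumors, and the scaling factors were 0.68 to 1.49, 1.43 to 2.85, 0.59 to 10.5 and 0.81 to 0.82. All combination tumors were thus deeper than all ADU-S100 tumors. Olaparib tumor 1517 had the lowest total and the largest factor, so that its values of Cxcl9, Cxcl10, Cxcl11 and Cxcr3 rested on 20, 20, 11 and 10 counts. Over all 12 tumors and all 4 genes the scaled values were between 2.92 and 131 times the background, taken as the median of the 30 dimmest genes in that tumor. Intervals from counts cover counting error only. Of 8 epithelial markers listed, 3 were measured (Epcam, Cdh1 and Muc1), and they summed to between 10802 and 22177 normalized counts, and the leukocyte marker Ptprc ranged from 152 to 1003. Fewer cells of a type and less RNA per cell cannot be told apart in bulk RNA.

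Cxcl9 was highest in the combination group. It measured 80.5, 81.8 and 26.3 normalized counts in vehicle tumors 1269, 1529 and 1536, and 692, 82.5 and 71.3 in ADU-S100 tumors 1506, 1512 and 1513. It measured 140, 210 and 110 in olaparib tumors 1510, 1517 and 1521, and 244, 713 and 707 in combination tumors 1251, 1270 and 1539. All combination tumors exceeded every vehicle and every olaparib tumor, while ADU-S100 tumor 1506 reached the level of the upper combination tumors and the remaining ADU-S100 tumors stayed at the vehicle level. Group means were 62.9 ± 31.6 in vehicle, 282 ± 355 in ADU-S100, 153 ± 51.0 in olaparib and 555 ± 269 in combination tumors (SD, n = 3 each). The lowest tumor (vehicle 1536) and the highest (combination 1270) differed 27.1-fold.

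Cxcl10, a common readout of STING and interferon signaling, was above vehicle in all but 1 treated tumor on the deposited scaling. It measured 162, 112 and 123 normalized counts in the vehicle tumors, 1376, 253 and 156 in the ADU-S100 tumors, 810, 210 and 473 in the olaparib tumors, and 508, 460 and 751 in the combination tumors, each in the order of tumors used for Cxcl9. On this scaling, every olaparib and combination tumor exceeded every vehicle tumor. The highest value of the 12 was that of ADU-S100 tumor 1506, and the single treated tumor not above vehicle was ADU-S100 tumor 1513. Olaparib tumor 1517 rested on 20 counts, and its counting interval of 128 to 324 overlapped that of vehicle tumor 1269, 142 to 184. By rank among the genes within each tumor, tumor 1517 stood at percentile 44.1, inside the vehicle range of 40.6 to 57.1. Group means were 132 ± 26.3, 595 ± 678, 498 ± 301 and 573 ± 156 in the same order (SD, n = 3 each). The 3 treated means lay within each other's SD, and no order among them could be read.

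Cxcl11, the remaining ligand, resembled Cxcl10 in its tumor order. It measured 37.5, 32.7 and 33.9 normalized counts in vehicle, 325, 80.6 and 32.8 in ADU-S100, 283, 115 and 76.0 in olaparib, and 154, 144 and 193 in combination tumors. On the deposited scaling, vehicle tumors were tightly grouped, all olaparib and combination tumors lay above them, and ADU-S100 tumor 1513 lay among them. Olaparib tumor 1517 rested on 11 counts. By rank among the genes within each tumor, tumor 1517 stood at percentile 32.2, inside the vehicle range of 24.8 to 38.6. Means were 34.7 ± 2.50, 146 ± 157, 158 ± 110 and 164 ± 25.6 (SD, n = 3 each). The coefficient of variation was 7.19% in vehicle, 107% in ADU-S100, 69.4% in olaparib and 15.7% in combination tumors.

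For the receptor Cxcr3 all groups overlapped. It measured 25.9, 68.4 and 20.8 normalized counts in vehicle, 79.8, 58.9 and 27.1 in ADU-S100, 33.1, 105 and 21.2 in olaparib, and 48.6, 73.4 and 73.0 in combination tumors. No treated group was free of overlap with vehicle, and vehicle tumor 1529 was nearly as high as the upper combination tumors. The highest value, in olaparib tumor 1517, rested on 10 counts and had a 95% counting interval of 50.3 to 193. Means were 38.4 ± 26.1 in vehicle, 55.3 ± 26.5 in ADU-S100, 53.0 ± 45.2 in olaparib and 65.0 ± 14.2 in combination tumors (SD, n = 3 each). For Cxcl9, Cxcl10 and Cxcl11, 8 of 9 treated tumors exceeded every vehicle tumor, and for Cxcr3 4 of 9 did. For Cxcl9 these included ADU-S100 tumor 1512, whose 95% counting interval of 59.5 to 112 overlapped that of vehicle tumor 1529, 61.6 to 106.

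**Figure D1:**
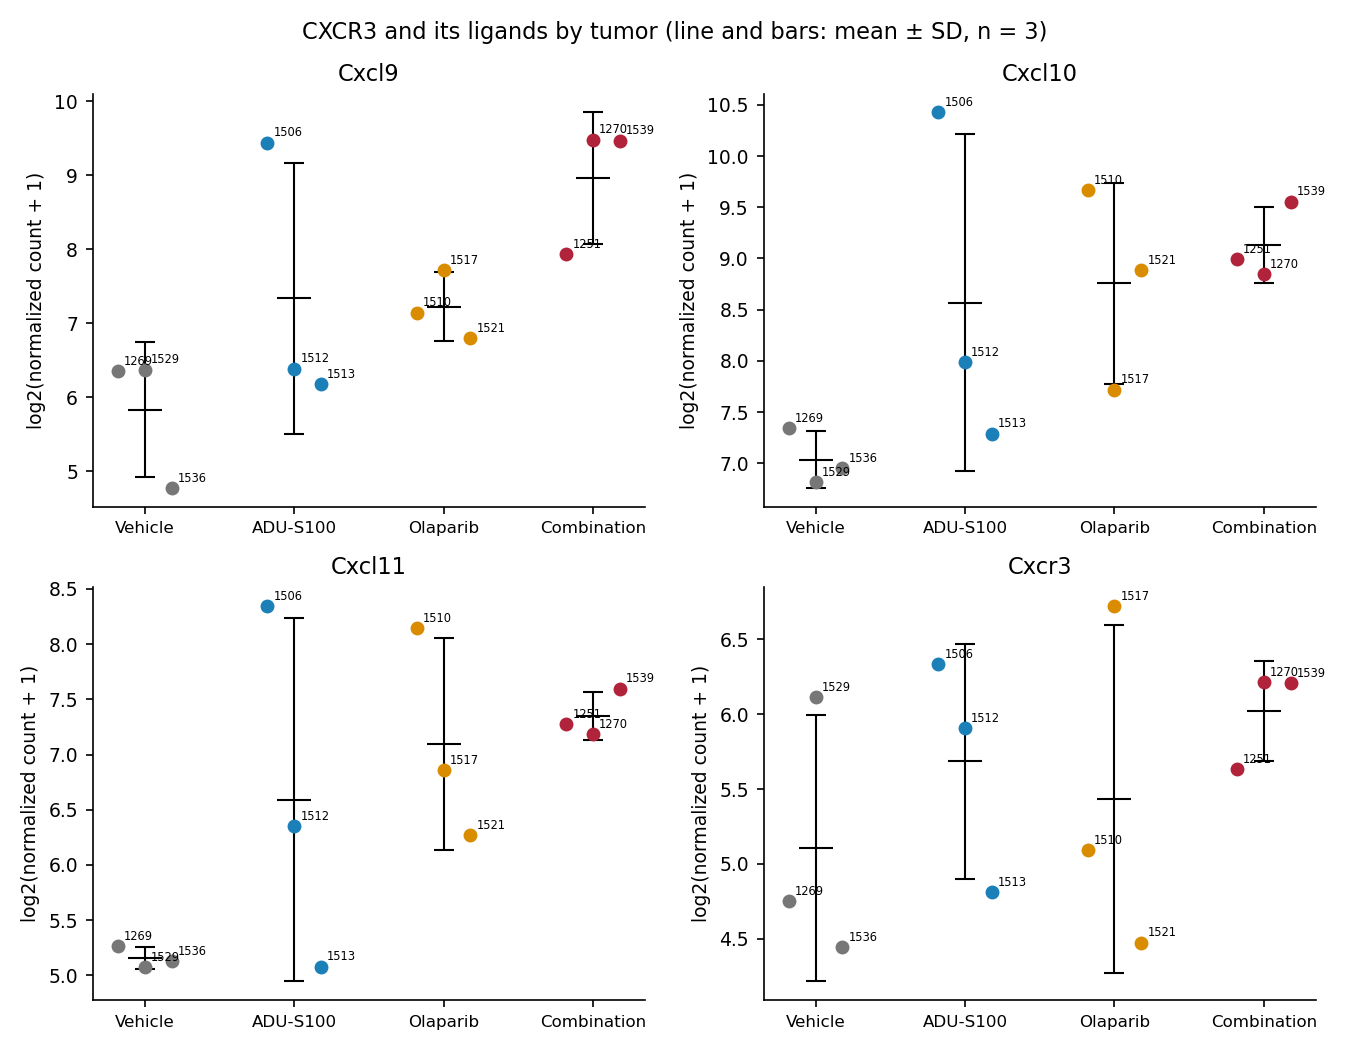
Each point is a tumor, labelled by its number, and the y axis is log2(normalized count + 1), with a separate scale per gene. Lines and bars give the mean and SD of 3 tumors. On the deposited scaling, all olaparib and combination tumors lie above all vehicle tumors for Cxcl9, Cxcl10 and Cxcl11. ADU-S100 tumor 1506 stands far above the rest of its group for these ligands, and the groups overlap for Cxcr3.

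The spread of the ligands was widest in the ADU-S100 group. Between its highest and lowest tumor, 1506 and 1513, Cxcl9 differed 9.70-fold, Cxcl10 8.85-fold and Cxcl11 9.89-fold, and Cxcr3 differed 2.94-fold. In the combination group the corresponding ratios were 2.92, 1.63, 1.34 and 1.51. The difference in spread between groups was not tested. Over all groups, the pooled SD within groups was 1.14 for Cxcl9, 0.99 for Cxcl10, 0.96 for Cxcl11 and 0.85 for Cxcr3 on the log2 scale, against a median of 0.79 over the 689 genes. The median gene of the panel varied between tumors too, and that of tumor 1506 lay 0.54 above its group mean, that of olaparib tumor 1517 lay 0.77 above and that of olaparib tumor 1521 lay -0.75 from it. Its part in the ligands' spread was not tested.

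Against vehicle, all 3 ligands were higher in the combination, and the Cxcl9 difference ranked among those of the top genes of the panel. On the scale of log2(normalized count + 1), limma gave a log2 fold change of 3.13 for Cxcl9 (SE 0.84, 95% interval 1.30 to 4.96, adjusted p = 0.278), which is 8.76-fold and larger than that of 99.9% of the genes tested. Cxcl10 differed by 2.10 (SE 0.74, limma adjusted p = 0.438) and Cxcl11 by 2.20 (SE 0.72, limma adjusted p = 0.401). For Cxcr3 the difference was 0.92 (SE 0.65, interval -0.52 to 2.35, limma adjusted p = 0.842), and its interval included 0. Without vehicle tumor 1529 it was 1.42 and without vehicle tumor 1536 it was 0.59. No gene of the 689 (0%) passed the adjusted threshold of 0.05 in limma, in this or the other 7 comparisons described, and 53 genes had an unadjusted p under 0.05 here and between 14 and 75 in the others. All 4 genes were above vehicle, as were 65.3% of the genes tested. Groups did not overlap for 3 of the 4 genes, against 18.4% of all genes in the direction of higher in the combination, and 3 had an unadjusted p under 0.05, against 7.55%. In a fit of only these groups, Cxcl11 passed with a limma adjusted p of 0.0322, at the same log2 difference. The methods' test on these values gave Cxcl11 an adjusted p of 0.150 with the Benjamini-Yekutieli adjustment that the study names, which did not pass, and 0.0211 with that of Benjamini and Hochberg.

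With olaparib alone, the largest differences from vehicle among the 4 genes were those of Cxcl11 and Cxcl10. The log2 fold change was 1.94 for Cxcl11 (SE 0.72, 95% interval 0.35 to 3.52, limma adjusted p = 0.577), 1.72 for Cxcl10 (SE 0.74, adjusted p = 0.582) and 1.39 for Cxcl9 (SE 0.84, adjusted p = 0.582), which was 0.86 without vehicle tumor 1536. Cxcr3 differed by 0.33 (SE 0.65, limma adjusted p = 0.850), and this value was -0.038 with each tumor scaled to the same median. With the log2 scaling factor as a covariate, the difference was 0.82 for Cxcl9 and -0.58 for Cxcr3 (limma adjusted p = 0.836 and 0.717). All 4 genes were above vehicle, as were 74.6% of all genes. On the deposited scaling the 3 ligands did not overlap with vehicle, against 3.77% of all genes. By rank among the genes within each tumor, olaparib tumor 1517 lay inside the vehicle range for all 3. Its percentile was 44.1 for Cxcl9 (vehicle 30.7 to 47.9), 44.1 for Cxcl10 (vehicle 40.6 to 57.1) and 32.2 for Cxcl11 (vehicle 24.8 to 38.6). Olaparib tumors 1510 and 1521 ranked above every vehicle tumor for each ligand. Unadjusted p-values under 0.05 were found for 2 of the 4 genes, against 5.81% of the genes tested.

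With the STING agonist ADU-S100 alone, the ligand differences from vehicle depended on which tumors were included. The log2 fold change was 1.502 for Cxcl9 (SE 0.84), 1.53 for Cxcl10 (SE 0.74), 1.44 for Cxcl11 (SE 0.72) and 0.58 for Cxcr3 (SE 0.65), with limma adjusted p-values of 0.809, 0.809, 0.809 and 0.874. Without tumor 1506 the values for Cxcl9, Cxcl10 and Cxcl11 were 0.45, 0.60 and 0.56, and without tumor 1513 they were 2.08, 2.17 and 2.19. Cxcr3 was 0.26 without tumor 1506, 1.02 without tumor 1513, 1.09 without vehicle tumor 1529 and 0.25 without vehicle tumor 1536, and Cxcl9 was 0.97 without vehicle tumor 1536. All 4 genes were above vehicle, as were 78.2% of all genes. None of the 4 genes was free of overlap with vehicle, against 13.9% of all genes, and none had an unadjusted p under 0.05, against 4.64% of all genes. The 3 comparisons against vehicle share its tumors. With the number series of the tumors (12 or 15) as a block, the Cxcl9 difference of the combination was 3.13 (limma adjusted p = 0.609). The median gene of the panel stood 0.44 above vehicle with ADU-S100, 0.45 with olaparib and 0.21 with the combination, and after scaling each tumor to the same median the combination difference was 2.86 for Cxcl9 (limma adjusted p = 0.141) and 1.92 for Cxcl11 (limma adjusted p = 0.339). That scaling gave 1.01 for Cxcl9, 1.04 for Cxcl10, 0.94 for Cxcl11 and 0.098 for Cxcr3 with ADU-S100. With olaparib it gave 1.02, 1.35 and 1.57 for Cxcl9, Cxcl10 and Cxcl11.

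The combination was then compared with each drug alone, and Cxcl9 was the ligand with the largest differences. Against olaparib it was higher by 1.74 (SE 0.84, 95% interval -0.093 to 3.58, limma adjusted p = 0.594) with no overlap, a pattern found for 1 of the 4 genes and 11% of all genes. The 95% counting intervals of combination tumor 1251, 217 to 273, and olaparib tumor 1517, 128 to 324, overlapped for Cxcl9. Against ADU-S100 Cxcl9 was higher by 1.63 (SE 0.84, 95% interval -0.21 to 3.46, limma adjusted p = 0.536), and the groups overlapped, as they did for all 4 genes, against 10.4% of all genes that were separate in this direction. Without ADU-S100 tumor 1506 the differences from ADU-S100 were 2.68 for Cxcl9, 1.49 for Cxcl10 and 1.64 for Cxcl11, without tumor 1512 they were 1.15, 0.27 and 0.64, and without tumor 1513 they were 1.05, -0.078 and 0.0033. Cxcl10 differed from olaparib by 0.37 (95% interval -1.25 to 1.997) and from ADU-S100 by 0.56 (interval -1.06 to 2.18). Cxcl11 differed by 0.26 (interval -1.33 to 1.85) and 0.76 (interval -0.83 to 2.35), and Cxcr3 by 0.59 (interval -0.85 to 2.02) and 0.33 (interval -1.10 to 1.77), in the same order. Without olaparib tumor 1517 Cxcr3 differed from olaparib by 1.24, and without olaparib tumor 1521 by 0.11. On the linear scale the intervals of Cxcl10, Cxcl11 and Cxcr3 reached down to 0.398-fold and up to 5.09-fold. With the log2 scaling factor as a covariate, the Cxcr3 difference was 1.58 from olaparib (limma adjusted p = 0.141) and 1.19 from ADU-S100 (limma adjusted p = 0.212), and the Cxcl9 difference was 2.37 and 2.17 (limma adjusted p = 0.313 and 0.284). With the number series as a block, the Cxcl9 difference was 1.74 from olaparib and 1.62 from ADU-S100 (limma adjusted p = 0.980 and 0.998). Against olaparib, the ADU-S100 group differed by 0.11 for Cxcl9, -0.19 for Cxcl10, -0.50 for Cxcl11 and 0.25 for Cxcr3, and its limma adjusted p was 0.998 for each gene.

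**Figure D2:**
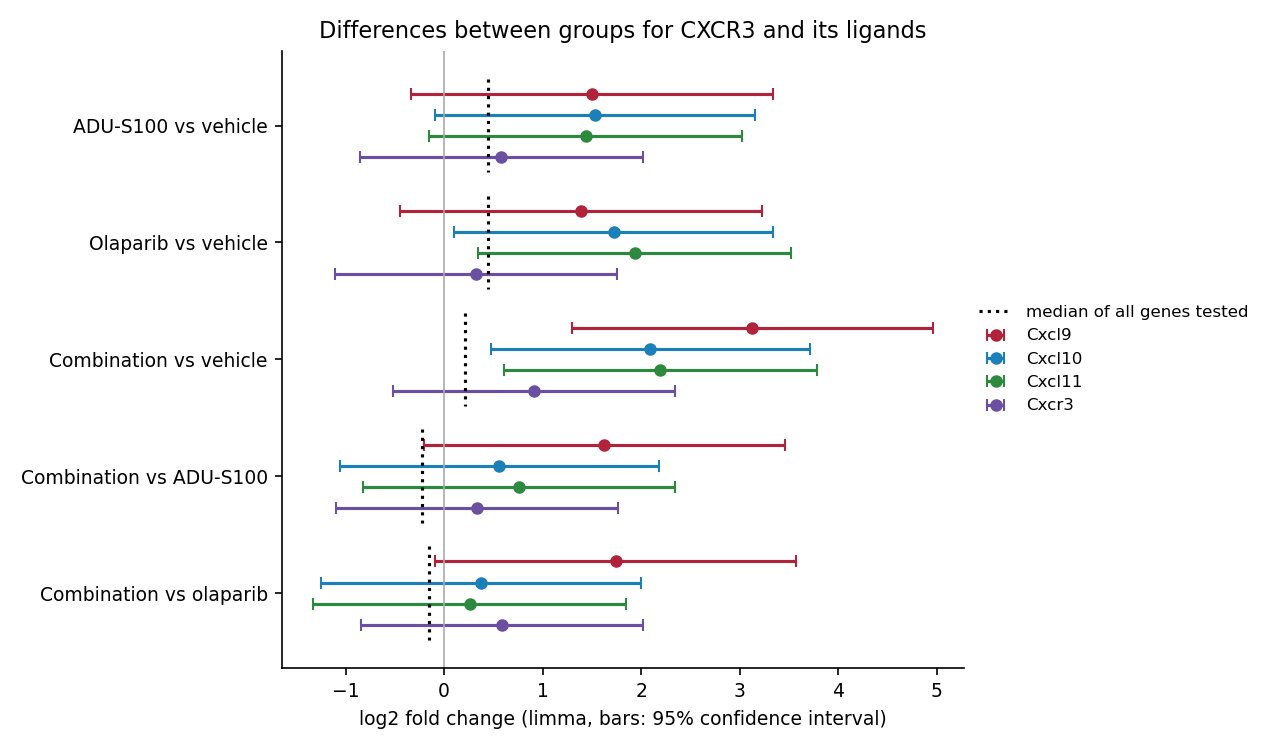
The x axis is the log2 fold change of each gene in 5 comparisons of groups, from the limma fit, and bars are 95% confidence intervals. Dotted lines mark the median of the 689 genes tested. The Cxcl9 difference of the combination against vehicle, 3.13, lies farthest to the right, and the Cxcr3 intervals all include 0.

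The question of whether ADU-S100 acted differently with and without olaparib was put to an interaction term. It was 0.24 for Cxcl9 (SE 1.18, limma adjusted p = 0.919), -1.16 for Cxcl10 (SE 1.05, adjusted p = 0.615), -1.18 for Cxcl11 (SE 1.02, adjusted p = 0.607) and 0.0084 for Cxcr3 (SE 0.92, adjusted p = 0.9996). For Cxcl10 and Cxcl11, ADU-S100 added 1.53 and 1.44 to vehicle and 0.37 and 0.26 to olaparib. All 4 intervals included 0, and the median gene stood at -0.55. Without ADU-S100 tumor 1506 the terms were -0.23 for Cxcl10 and -0.30 for Cxcl11, without ADU-S100 tumor 1513 they were -1.80 and -1.93, and without olaparib tumor 1510 they were -0.70 and -0.65. With the log2 scaling factor as a covariate they were 1.35 for Cxcl9, -1.53 for Cxcl10, -0.54 for Cxcl11 and 1.78 for Cxcr3, with limma adjusted p-values of 0.766, 0.668, 0.910 and 0.452.

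All treated tumors together were also set against vehicle, the split for which an exact test of 9 against 3 tumors can fall below 0.05. The difference was 1.78 for Cxcl10 (two-sided exact permutation p = 0.0136), 1.86 for Cxcl11 (exact permutation p = 0.0182), 2.01 for Cxcl9 (exact permutation p = 0.05) and 0.61 for Cxcr3 (exact permutation p = 0.264). Of 689 genes, 4.06% had an exact p under 0.05, as had 2 of the 4 genes described. After Benjamini-Hochberg adjustment over all 689 genes, the exact permutation p was 0.764 for each of the 4 genes, and limma gave an adjusted p of 0.697 for the ligands and 0.729 for Cxcr3.

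Differences between genes within a tumor cancel the scaling factor of that tumor except for the part left by the pseudocount of 1, which weighs most on low values. Their size depends on the probes, so that only changes between tumors are described. Cxcl11 minus Cxcl10 had mean log2 differences of -1.88 ± 0.18 in vehicle, -1.98 ± 0.30 in ADU-S100, -1.66 ± 0.89 in olaparib and -1.78 ± 0.16 in combination tumors (SD, n = 3). The wide spread in the olaparib group came from tumors 1517 and 1521, at -0.86 and -2.62. Cxcl10 minus Cxcl9 was 1.21 ± 0.89 in vehicle, 1.24 ± 0.33 in ADU-S100, 1.54 ± 1.35 in olaparib and 0.17 ± 0.85 in combination tumors. The combination tumors overlapped with every other group, and the exact permutation p was 0.3 for vehicle, 0.2 for ADU-S100 and 0.3 for olaparib, where 3 against 3 tumors cannot go below 0.1. The difference from vehicle was -1.04 and became -0.55 without vehicle tumor 1536 and -0.63 without combination tumor 1270, and that from olaparib was -1.37 and became -0.87 without olaparib tumor 1510 and -2.14 without olaparib tumor 1517.

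Cxcl9 was also compared with Cd3e, a chain of the T cell receptor complex that marks T cells in general. Cxcl9 minus Cd3e was 2.41, 2.03 and 1.92 in vehicle tumors and 3.02, 3.33 and 4.13 in combination tumors. The groups did not overlap, and the means differed by 1.38 on the log2 scale (two-sided exact permutation p = 0.1, the smallest possible). Against ADU-S100 the difference was 0.36 (exact permutation p = 0.8) and against olaparib 1.01 (exact permutation p = 0.2). Cd3e was at 1.0 times background in ADU-S100 tumor 1512, at 1.67 times in ADU-S100 tumor 1506 and olaparib tumor 1517 and at 1.29 times in vehicle tumor 1536, so that these differences are poorly determined. With background subtracted, the combination differed by 0.82 from vehicle, -1.18 from ADU-S100 and 0.48 from olaparib (exact permutation p = 0.1, 0.4 and 0.4). Cxcr3 minus Cd3e was 1.39 ± 0.51 in vehicle and 0.55 ± 0.43 in combination tumors (SD, n = 3), a difference of -0.84 (exact permutation p = 0.2) with overlap, and with background subtracted it was -1.41 (exact permutation p = 0.1) and -2.34 from ADU-S100 (exact permutation p = 0.2).

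**Figure D3:**
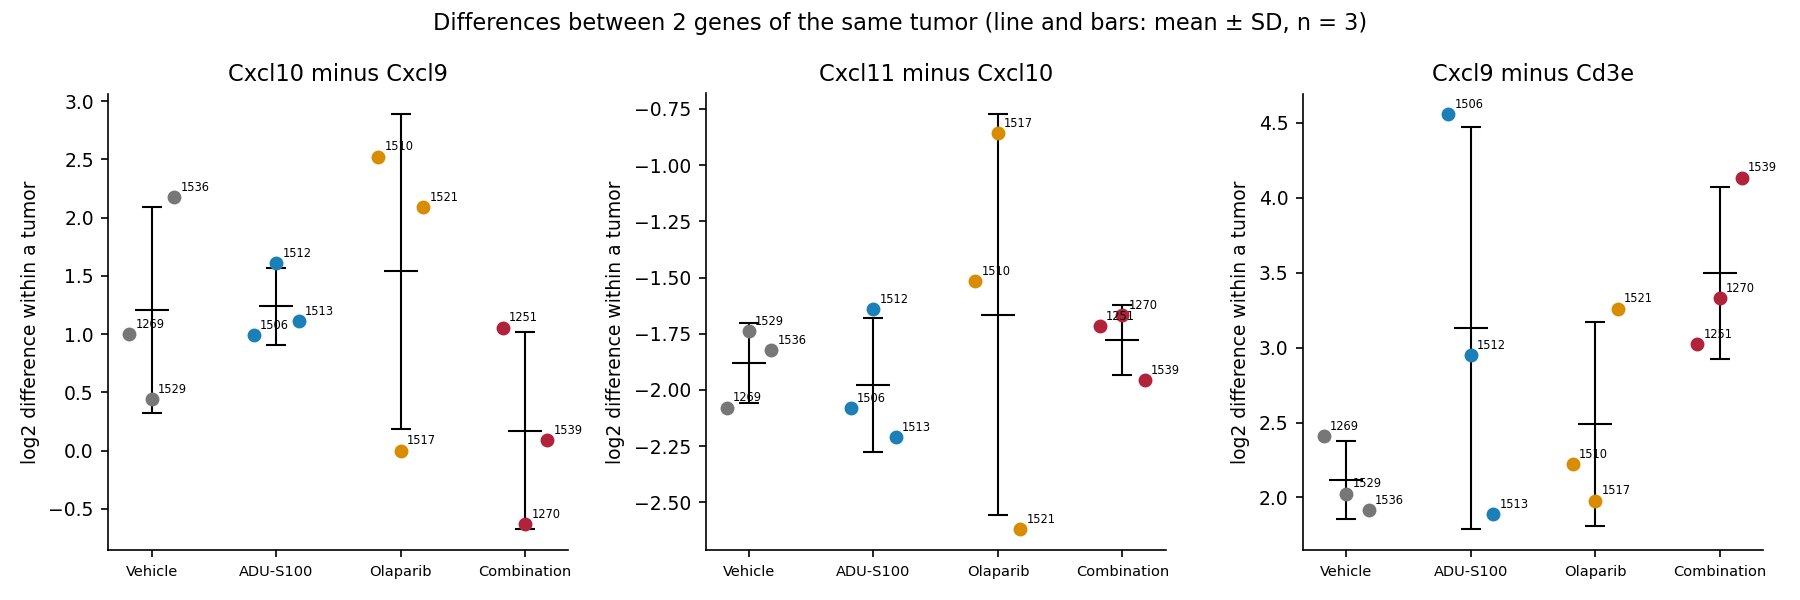
Each point is a tumor, and the y axis is the log2 difference between a pair of genes in that tumor. Lines and bars give the mean and SD of 3 tumors. Cxcl9 minus Cd3e is higher in all combination tumors (3.02 to 4.13) than in all vehicle tumors (1.92 to 2.41), and Cxcl10 minus Cxcl9 overlaps between all groups.

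Relations across the 12 tumors were computed for the 6 pairs among the 4 genes and the 8 pairs with Cd3e or Cd8a, 14 in all, and 7 passed Benjamini-Hochberg adjustment. Cxcl10 and Cxcl11 were the closest pair, with r = 0.94 (permutation p = 4e-05, adjusted 0.00056) and rho = 0.94 (adjusted permutation p = 0.00056). The relation held without the 2 tumors farthest from the median of Cxcl10 (r = 0.90), among the deviations from group means (r = 0.88) and in the 9 tumors with numbers starting in 15 (r = 0.93). Cxcl9 followed with r = 0.80 to Cxcl11 (adjusted permutation p = 0.00854, rho = 0.81) and r = 0.77 to Cxcl10 (adjusted permutation p = 0.00986, rho = 0.75), and these were 0.68 and 0.63 among the deviations from group means. Cxcr3 was related to Cxcl9 (r = 0.69, adjusted permutation p = 0.0280, rho = 0.73) and not detectably to Cxcl10 (r = 0.29, adjusted permutation p = 0.381, rho = 0.32) or Cxcl11 (r = 0.50, adjusted permutation p = 0.134, rho = 0.50). For these 5 pairs, in the order named, the unadjusted permutation p of r was 0.00228, 0.00352, 0.0140, 0.354 and 0.0998, and the adjusted permutation p of rho was 0.0106, 0.0179, 0.0188, 0.306 and 0.131. Without combination tumors 1270 and 1539, the farthest from the median of Cxcl9, r of Cxcl9 was 0.82 with Cxcl11, 0.79 with Cxcl10 and 0.64 with Cxcr3, and in the tumors numbered from 15 it was 0.81, 0.80 and 0.66. After scaling tumors to the same median, r of Cxcl9 and Cxcr3 was 0.60 and no longer passed (adjusted permutation p = 0.116). It also did not pass without vehicle tumor 1536 (r = 0.60, adjusted permutation p = 0.105), ADU-S100 tumor 1506 (r = 0.65, adjusted permutation p = 0.0589) or ADU-S100 tumor 1513 (r = 0.67, adjusted permutation p = 0.0531). Whether these coefficients differ from each other was not tested.

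With Cd3e, Cxcl9 had the highest coefficient, r = 0.83 (adjusted permutation p = 0.00840, rho = 0.80). It was 0.74 without combination tumors 1270 and 1539, 0.76 in the 9 tumors numbered from 15 and 0.70 among deviations from group means. For Cxcl10 and Cd3e r was 0.46 (adjusted permutation p = 0.157, rho = 0.43) and 0.060 among deviations, and for Cxcl11 and Cd3e it was 0.62 (adjusted permutation p = 0.0593, rho = 0.58) and 0.33 among deviations. The unadjusted permutation p of r was 0.0012 for Cxcl9, 0.135 for Cxcl10 and 0.0339 for Cxcl11, and the adjusted permutation p of rho was 0.0106, 0.188 and 0.0808. The coefficients among deviations carry no test, and the difference between the coefficients was not tested. Cd3e rested on few counts, between 5 and 85 per tumor, and stood less than 2 times above background in 4 tumors.

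**Figure D4:**
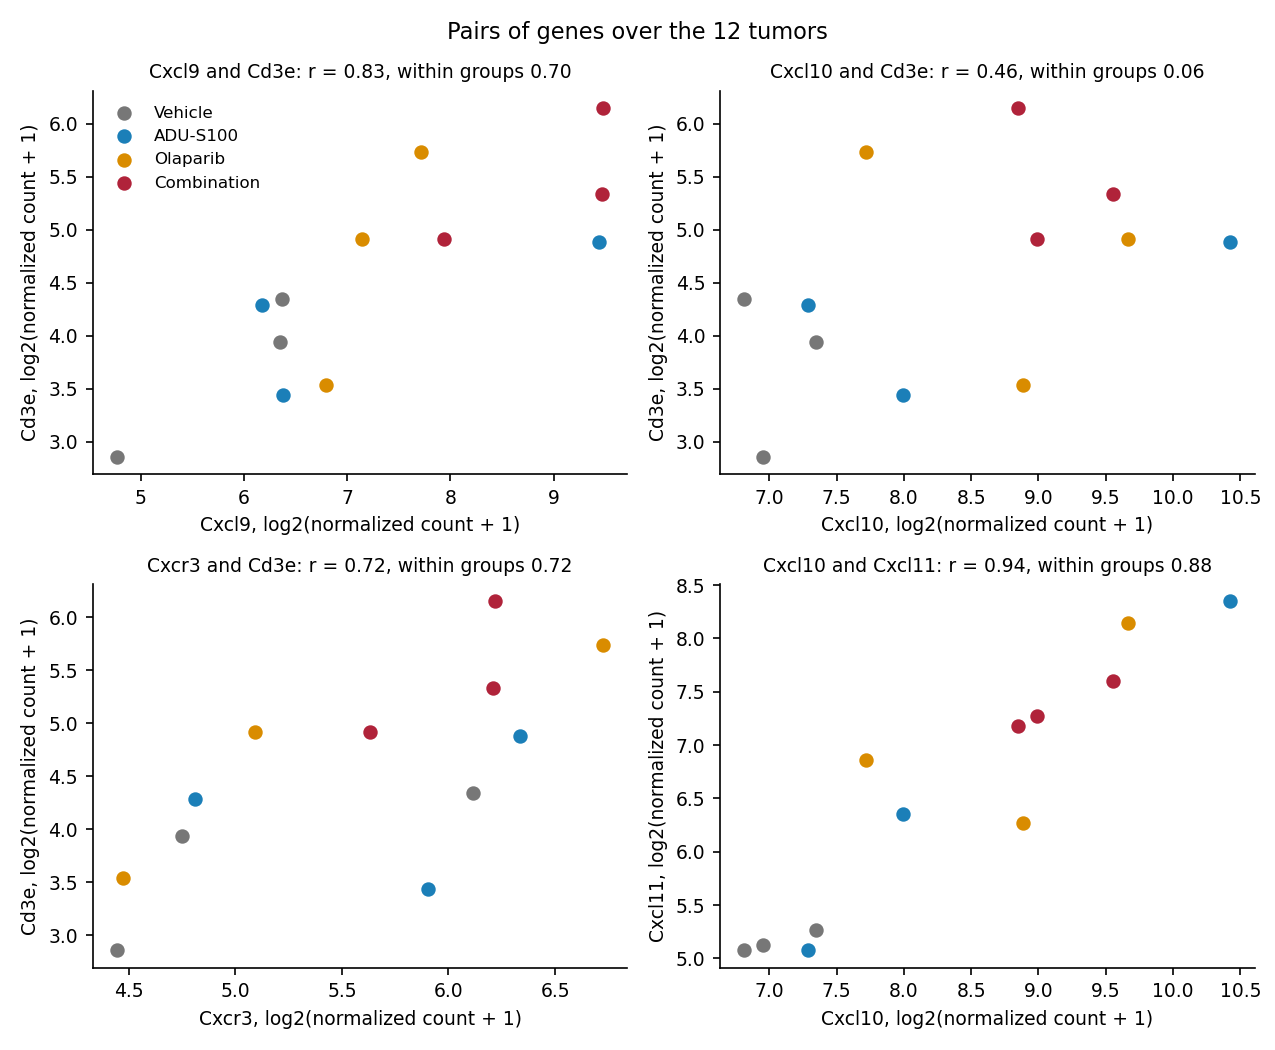
Each point is a tumor, colored by group, and both axes are log2(normalized count + 1). Cxcl9 and Cd3e rise together (r = 0.83, within groups 0.70), the relation of Cxcl10 and Cd3e did not pass (r = 0.46, within groups 0.060), and Cxcl10 and Cxcl11 lie close to a line (r = 0.94).

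The receptor was related to both T cell genes. With Cd8a, a chain of the coreceptor of cytotoxic T cells, Cxcr3 had r = 0.79 (adjusted permutation p = 0.00854, rho = 0.79), with 0.68 when tumors 1521 and 1536 were left out, 0.79 in the tumors numbered from 15 and 0.77 among deviations from group means. With Cd3e it had r = 0.72 (adjusted permutation p = 0.0226, rho = 0.74), with 0.71 in the tumors numbered from 15 and 0.72 among deviations. Without tumors 1521 and 1536 together it was 0.54 and no longer passed (permutation p = 0.113), and with any 1 tumor left out it was between 0.64 and 0.83, not passing without vehicle tumor 1536 (adjusted permutation p = 0.0854) or olaparib tumor 1517 (adjusted permutation p = 0.0549). The unadjusted permutation p of r was 0.00244 with Cd8a and 0.00969 with Cd3e, and the adjusted permutation p of rho was 0.0119 and 0.0185. Both relations moved with the scaling of the tumors, and after scaling to the same median r was 0.57 with Cd8a (adjusted permutation p = 0.119) and 0.54 with Cd3e (adjusted permutation p = 0.133). The correlation with the log2 scaling factor was 0.61 for Cxcr3, 0.60 for Cd8a and 0.38 for Cd3e, against 0.16 for Cxcl9, 0.037 for Cxcl10, 0.29 for Cxcl11 and a median of 0.59 over all genes. Cd8a rested on 4 to 43 counts, less than 2 times above background in 8 tumors. Relations of the ligands with Cd8a did not pass adjustment for Pearson's r, with 0.59 for Cxcl9, 0.49 for Cxcl11 and 0.25 for Cxcl10 (permutation p = 0.0451, 0.105 and 0.424, and 0.0701, 0.134 and 0.424 after adjustment), although rho for Cxcl9 was 0.69 (adjusted permutation p = 0.0265). Among deviations from group means these were 0.21, 0.045 and -0.39.

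**Figure D5:**
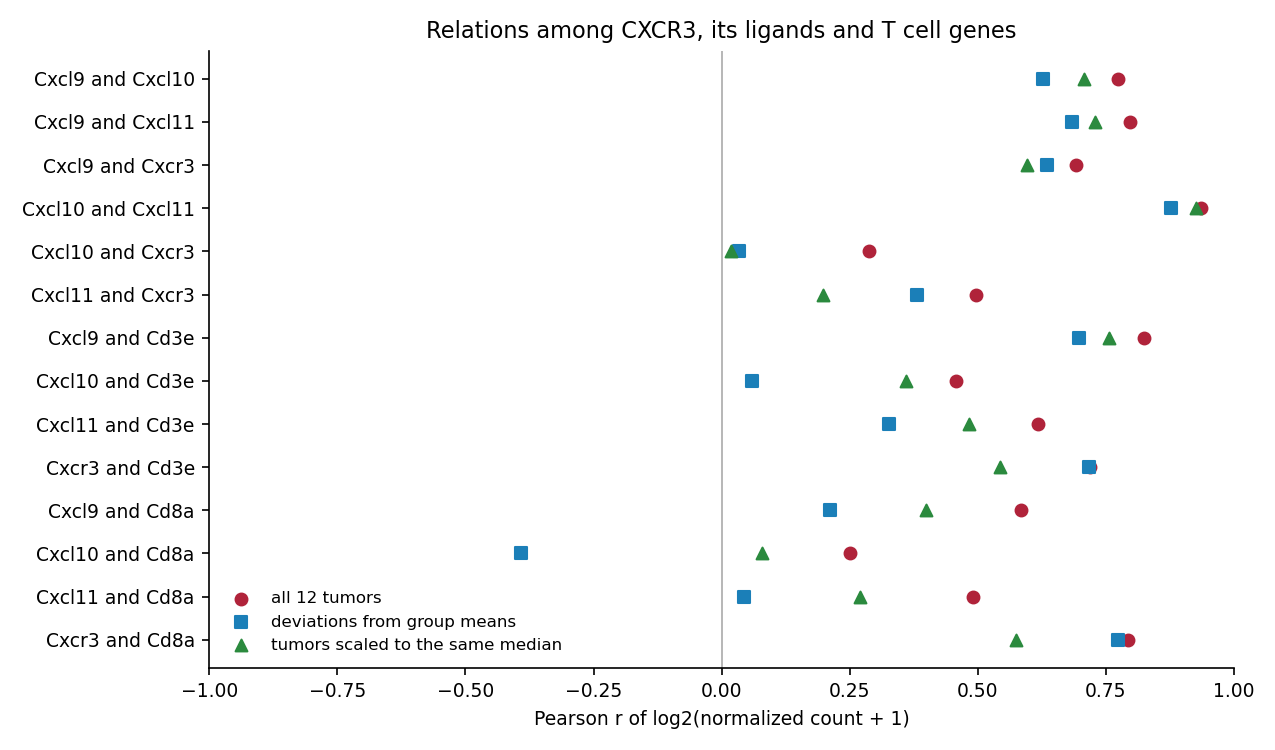
The x axis is Pearson's r over the 12 tumors for 14 pairs of genes, from the values as deposited (circles), from deviations from group means (squares) and after scaling tumors to the same median (triangles). Cxcl10 and Cxcl11 stay near 0.9 in all versions, and the relations of Cxcl10 with Cxcr3, Cd3e and Cd8a drop to 0.060 or less among deviations.

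The genes with the most similar pattern over the 12 tumors differed between the ligands, as a description without a test. For Cxcl9 they were Klrk1, which encodes the activating receptor NKG2D of NK and CD8+ T cells (r = 0.95), Cd3g of the T cell receptor complex (r = 0.93) and Slamf7, a receptor of NK cells and other activated lymphocytes (r = 0.90). For Cxcl10 they were Cxcl11 (r = 0.94), the early activation marker Cd69 (r = 0.88) and Cd180, a Toll-like receptor homolog of B cells and myeloid cells (r = 0.87). For Cxcl11 they were Cxcl10 and the interferon-inducible genes Gbp5 (r = 0.93) and Oasl1 (r = 0.91). For Cxcr3 they were Ctsw, a protease of cytotoxic lymphocytes (r = 0.94), Prdm1, which encodes the transcription factor Blimp-1 (r = 0.91), and Cxcr6, a chemokine receptor of effector T cells (r = 0.91), and after scaling tumors to the same median these were 0.83, 0.62 and 0.73. The median r over all genes was 0.26 for Cxcl9, 0.13 for Cxcl10, 0.31 for Cxcl11 and 0.51 for Cxcr3.

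The interferon genes upstream of the ligands were described from a list of 20, of which 18 passed the filter. With the combination, 13 were above vehicle and 5 below, where 65.3% of all genes were above, and none passed the adjusted threshold, with a median log2 fold change of 0.26 against 0.21 for all genes. Irf7, a transcription factor of the type I interferon response, had the largest difference, 2.20 (SE 0.90, limma adjusted p = 0.504), and Tyk2, a kinase of the interferon receptor, the smallest, -0.27 (SE 0.77). With ADU-S100, 13 of 18 were above vehicle (median 0.33, against 78.2% and 0.44 for all genes), from Tyk2 at 1.71 (SE 0.77, limma adjusted p = 0.809) to Jak2 at -0.12, and with olaparib 16 of 18 were (median 0.67, against 74.6% and 0.45 for all genes), from Ifna1 at 1.78 (SE 0.74, limma adjusted p = 0.582) to Jak2 at -0.46. Ifng, the interferon on which Cxcl9 depends, did not pass the filter. It measured 6.14, 11.9 and 7.62 in vehicle, 37.0, 7.86 and 15.7 in ADU-S100, 15.6, 41.9 and 2.95 in olaparib and 8.91, 9.89 and 9.02 normalized counts in combination tumors. These values rested on 4 to 13 counts, were less than 2 times above background in 11 of 12 tumors, and allow no order of the groups.

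Most genes of T and NK cells, the cells that carry CXCR3, stood above vehicle in all treated groups, and none passed the adjusted threshold. Of the 18 that passed the filter, 17 were above vehicle with ADU-S100 (median 1.20 against 0.44 for all genes), 17 with olaparib (median 1.23 against 0.45) and 17 with the combination (median 1.29 against 0.21), where 78.2%, 74.6% and 65.3% of all genes were above vehicle. The largest difference with the combination was that of Klrk1, 2.41 (SE 0.61, limma adjusted p = 0.278), and the smallest that of Klrb1c, an NK cell receptor gene, -0.35 (SE 0.88). With ADU-S100 the range ran from Il2rb, a chain of the receptors for interleukin 2 and interleukin 15, at 3.37 (SE 1.17, limma adjusted p = 0.809) to Cd5 at -0.11, and with olaparib from the granzyme gene Gzma at 1.82 (SE 0.97, limma adjusted p = 0.582) to Cd5 at -0.032. Cd3e differed from vehicle by 1.75 with the combination (SE 0.64, limma adjusted p = 0.456), 1.02 with olaparib and 0.49 with ADU-S100, and Cd8a by 1.39, 0.92 and 0.99. Some of these genes lay near background. Vehicle medians of Cd8a and Klrb1c were 6.93 and 6.82 normalized counts, at a background of 4.77 to 6.69. The background was 9.27 to 17.1 in ADU-S100, 4.12 to 31.4 in olaparib and 4.86 to 6.60 in combination tumors. Its part in the differences of low genes was not tested. Tbx21, which encodes the transcription factor T-bet that drives Cxcr3 in T cells, differed by 0.14 with the combination, 1.005 with olaparib and 0.93 with ADU-S100, and rested on 8 to 23 counts, less than 2 times above background in 5 tumors. The summed T cell markers, all 9 of 9 measured, ranged from 118 to 247 normalized counts in vehicle, 185 to 507 in ADU-S100, 153 to 786 in olaparib and 371 to 602 in combination tumors. Summed dendritic cell markers, 6 of 10 measured, ranged from 547 to 675 in combination and from 256 to 462 in vehicle tumors with no overlap, and NK cell markers, 5 of 6 measured, from 140 to 524 in ADU-S100 and from 60.7 to 125 in vehicle tumors. Fibroblast markers, 6 of 6 measured, ranged from 16406 to 85438 in vehicle, 31959 to 52999 in ADU-S100, 4349 to 20603 in olaparib and 13714 to 27430 in combination tumors. No summed list for macrophages, neutrophils, B cells, endothelium or epithelium was separate between vehicle and a treated group. The part of these markers in the differences of the 4 genes was not tested.

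Other chemokines that recruit lymphocytes gave Ccl5 as the gene most above vehicle with the combination. Ccl5, a chemokine that attracts T cells and is induced by STING signaling, measured a mean of 111 ± 83.6 in vehicle and 760 ± 530 normalized counts in combination tumors (SD, n = 3), a log2 difference of 2.80 (SE 0.70, limma adjusted p = 0.278), and the lowest gene was Cxcl12 at -1.28 (SE 1.501). Of 17 genes of this list, 11 were above vehicle with the combination, 13 with ADU-S100 and 11 with olaparib, where 65.3%, 78.2% and 74.6% of all genes were, and none passed the adjusted threshold. The median log2 differences were 0.41, 0.46 and 0.63, against 0.21, 0.44 and 0.45 for all genes. The extremes were Ccl3 at 1.73 and Cxcr4 at -0.71 with ADU-S100, and Xcr1 at 1.48 and Cxcr4 at -1.61 with olaparib. Of 6 symbols listed as modulators of the ligands, which include aliases of the same genes, 2 were measured. Dpp4, the peptidase that trims CXCL10, differed from vehicle by 0.20 with the combination (SE 1.16), 0.76 with olaparib and 0.99 with ADU-S100, and Ppbp, a platelet chemokine, by -0.11, 0.96 and 1.91. Of 7 listed genes of the neutrophil axis, chemokines that signal through CXCR2 and not CXCR3 and their receptors, 6 passed the filter. With the combination they ran from Cxcl2 at 1.19 (SE 0.69, limma adjusted p = 0.705) to Ppbp at -0.11, with ADU-S100 from Cxcl3 at 2.27 to Cxcr2 at 0.82, and with olaparib from Cxcr2 at 0.97 to Cxcl1 at -0.077, and none passed the adjusted threshold.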

How the data were processed

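Normalized counts of 750 genes in 12 tumors, grouped by the labels, were used. The authors deposited a linear signal per gene and tumor: per the methods, they processed nCounter counts in nSolver 4.0 with background correction, removal of counts under the negative controls, and scaling to positive controls and housekeeping genes. Counts behind the values were inferred as whole multiples of one step per tumor, within 0.01 of a count, above a floor of 1. They served for depth, counting intervals, the scaling factor and background subtraction. Limma 3.58.1 in R 4.3.3 fitted a mean per group to log2(normalized count + 1) over genes with at least 20 in at least 3 tumors, with Benjamini-Hochberg adjustment over 689 genes and a threshold of 0.05. The methods' test is their unpaired test on log2 values. Permutation tests were two-sided, exact for groups and with 100000 resamples for correlations. Fits and tests were tested on simulated data. Replicates are separate tumors with different numbers, 3 starting in 12 and 9 in 15. Those starting in 12 were vehicle tumor 1269 and combination tumors 1251 and 1270. The number series thus partly coincides with the comparisons of the combination with each single drug. The 4 genes and the gene lists were chosen with earlier results of these data known. Besides the 4 genes, Cd3e, Cd8a, Ifng, Dpp4, Tbx21 and Ccl5, the text names the 3 genes most like each of the 4 and the highest and lowest gene of each list against vehicle. Promoters are RefSeq's, of GRCm38.p6. Alternatives were a pseudocount of 10, no filter or one at 50, equal medians, quantile normalization, an intensity trend, only the groups compared, the methods' test, the number series as a block, the log2 scaling factor as a covariate, background subtraction and leaving out each tumor. Figures used matplotlib 3.10.9.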

Additional observations from a re-analysis of the deposited data

How the results depend on the processing

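Of 752 values of the 4 genes under alternatives, 715 kept their direction and their side of the threshold, as did 198 of 210 correlations and 215 of 224 differences within a tumor. Cxcl11 with the combination against vehicle stayed at 2.20 and passed with only the groups compared and with the methods' test after Benjamini-Hochberg adjustment, but not after the study's Benjamini-Yekutieli adjustment (0.150), and its adjusted p ran from 0.0211 to 0.994 over all alternatives. Cxcr3 turned to -0.17 and -0.20 for ADU-S100 against vehicle (quantile normalization and scaling factor as covariate), to -0.038, -0.32 and -0.58 for olaparib against vehicle (same median, quantile normalization, covariate), to -0.043 for any treatment (quantile normalization) and to -0.0047 in the interaction (pseudocount 10). Cxcl9 turned to -0.012 for ADU-S100 against olaparib with the same median. With the same median, r no longer passed for Cxcl9 and Cxcr3 (0.60), Cxcr3 and Cd3e (0.54) and Cxcr3 and Cd8a (0.57). With background subtracted, it did not for Cxcr3 and Cd3e (0.41) or Cd8a (0.40), and Cxcl10 and Cd8a had -0.12. Cxcl11 minus Cxcl10 turned to -0.074 for the combination and -0.071 for any treatment against vehicle with a pseudocount of 10, and Cxcl9 minus Cd3e to -1.18 for the combination against ADU-S100 with background subtracted. The number of genes past the adjusted threshold for the combination against vehicle was 2 with only the groups compared (Cxcl11 and Gbp5), 3 with the methods' test after Benjamini-Hochberg adjustment (also Itgal), 0 after Benjamini-Yekutieli adjustment and 4 with the covariate (Ccl22, Klra7, Slamf7 and Xcl1). Against ADU-S100 it was 1, H2-Aa, with a pseudocount of 10, a filter of 50, the same median or an intensity trend. The genes beyond the 4 described were named here after their values were seen. At an unadjusted p under 0.05, the methods' test gave 86 genes for the combination against vehicle, 50 for ADU-S100 and 11 for olaparib.

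Leaving out each tumor in turn gave 0 to 55 genes for olaparib against vehicle, 0 to 54 for the combination against olaparib and 0 to 86 in the interaction, each highest without olaparib tumor 1521 and with none of the 4 genes among them, and 0 to 1 for the combination against ADU-S100, highest without ADU-S100 tumor 1506. Cxcr3 then ranged from 0.25 to 1.09 for ADU-S100, -0.32 to 0.83 for olaparib, 0.59 to 1.42 for the combination and 0.28 to 1.11 for any treatment against vehicle, from 0.11 to 1.24 for the combination against olaparib and from -0.10 to 0.66 for the combination against ADU-S100, where Cxcl10 ranged from -0.078 to 1.49. Against olaparib, the combination ranged from -0.14 to 0.83 for Cxcl10 and -0.15 to 0.79 for Cxcl11, and ADU-S100 from -0.94 to 0.69 for Cxcl9, -1.12 to 0.45 for Cxcl10, -1.38 to 0.26 for Cxcl11 and -0.22 to 0.90 for Cxcr3. The interaction ranged from -0.34 to 1.29 for Cxcl9, -1.80 to -0.23 for Cxcl10, -1.93 to -0.30 for Cxcl11 and -0.50 to 0.66 for Cxcr3, and over all alternatives up to 1.35 for Cxcl9 and 1.78 for Cxcr3 (covariate). The correlation ranged from 0.60 to 0.77 for Cxcl9 and Cxcr3, 0.64 to 0.83 for Cxcr3 and Cd3e and 0.47 to 0.67 for Cxcl9 and Cd8a, which passed without combination tumor 1539. Cxcl10 minus Cxcl9 ranged from -0.61 to 0.26 for any treatment and -1.48 to -0.55 for the combination against vehicle and from -2.14 to -0.87 for the combination against olaparib, Cxcl11 minus Cxcl10 from -0.59 to 0.29 for the combination against olaparib and -0.046 to 0.17 for any treatment against vehicle, Cxcr3 minus Cd3e from -0.41 to 0.097 for the combination against olaparib, and Cxcl9 minus Cd3e from -0.26 to 1.08 for the combination against ADU-S100. The causes were not tested.

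Both alternatives with a count model were not run, because the counts are inferred from steps in the values and a check that takes the smallest value as 1 count did not find the step in every tumor. Totals, counts and factors carry this limit. No paired analysis was possible because the groups share no tumor number. With 3 tumors per group, an exact test between groups cannot fall below 0.1. The low counts of Cd3e, Cd8a, Tbx21 and Ifng, and of all genes in olaparib tumor 1517, limit what can be read from them.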
